A study of Mus musculus with 4 samples.

Results

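The genes described are 36 members of the pathways that make cholesterol and fatty acids, out of 20089 genes in the tables. They were taken by gene symbol, through the Ensembl identifier of each row. The cholesterol arm held 19 genes, the fatty acid arm held 12, and 5 regulators of sterol sensing formed a group of their own. All 36 were found in every table.

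Total RNA was sequenced from HT22, an immortalised mouse hippocampal neuronal line that the labels assign to strain C57BL/6 and to hippocampal neurons. Neat1 is a long noncoding RNA that scaffolds nuclear bodies called paraspeckles, and the question posed was what its knockdown does to gene expression in normal and in stressed culture. Every culture had received a lentivirus. The knockdown OGD group carried the lentivirus against Neat1 and was kept under OGD (oxygen and glucose deprivation, a cell model of ischaemia), and the control OGD group carried the control negative lentivirus under OGD. The knockdown normal group carried the Neat1 lentivirus in DMEM/F12 with 10% FBS, and the control normal group carried the control negative lentivirus in that medium. Each group was 1 library, so no difference below has a replicate check and no p-value was computed. How long OGD lasted, whether its medium held serum and how many infected cultures stand behind a library are not stated in the labels.

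Mammalian cells build cholesterol from acetyl-CoA through mevalonate, isoprenoids, squalene and lanosterol, and build fatty acids by carboxylating acetyl-CoA, extending the chain on a synthase, and then elongating and desaturating it. Both arms are driven by the transcription factors SREBP-2 and SREBP-1, which are held in the endoplasmic reticulum by the Insig proteins when sterols are plentiful and are carried to the Golgi by Scap when sterols are scarce. Several late steps of sterol synthesis and every desaturase reaction consume molecular oxygen.

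Levels are CPM, the share of a library's reads that fell on a gene, from whole reads recovered from the scaled means that the authors deposited and rescaled by TMM, a scaling that assumes most genes are shared at equal level between libraries. Differences are log2 ratios of CPM with 0.5 CPM added, and the size rule was a 2-fold ratio in either direction. Where a level is given as so many fold lower, that fold is of CPM without the addition. Libraries held between 17232866 and 20764430 reads on genes. Neat1 stood at 42.1 CPM in the knockdown OGD library and 74.4 CPM in the control OGD library, and at 121 CPM in the knockdown normal library and 193 CPM in the control normal library. It was thus lower with its lentivirus in both cultures, by 0.81 on the log2 scale under OGD and by 0.68 in normal culture, short of 2-fold each time. The hypoxia-induced genes Bnip3, Slc2a1 and Ndrg1 were between 4.03 and 5.65 higher on the log2 scale under OGD in either cell group. The library labelled control normal stood apart: the summed level of 32 markers of brain cell types was 584 CPM in the knockdown OGD library, 377 in the control OGD library, 149 in the knockdown normal library and 2492 in the control normal library. Its 12 neuronal markers summed to 2010 CPM, of which Nrgn held 1095, against 33.5 to 217 CPM in the other 3 libraries. Oligodendrocyte markers were also highest there, at 267 CPM against 27.1 to 104, and endothelial markers at 27.6 CPM against 5.79 to 7.96. Astrocyte markers summed to 182 CPM there, to 246 in the knockdown OGD library, 243 in the control OGD library and 72.2 in the knockdown normal library. Microglial markers were lowest there, at 5.25 CPM. The high markers of that library were thus not neuronal alone. Of the 32 markers, 1 had 0 reads in the knockdown OGD library, 5 in the control OGD library, 2 in the knockdown normal library and 0 in the control normal library. The labels name no cells other than HT22, and where these marker reads came from was not tested. In bulk RNA of this kind, fewer cells of a type and less RNA per cell cannot be told apart.

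The sequences shown are the promoter windows of 4 members. Insig1 had the largest log2 ratio of any member under OGD in knockdown cells, Cyp51 had the largest in the cholesterol arm of those cells, and Elovl6 had the lowest ratio of all. Hmgcs1 was the only one of the 29 members with a window that held the sterol response element searched. Each window runs from 250 bases before to 50 bases after a RefSeq transcription start on build GRCm38.p6, written 5′ to 3′ on the strand of the gene. Capitals mark the sterol response element TCACNCCAC and the hypoxia response core ACGTG, each found on either strand, so the core also appears as CACGT and a CACGTG counts once on each strand.
Insig1, chr5:28071162-28071461, plus strand: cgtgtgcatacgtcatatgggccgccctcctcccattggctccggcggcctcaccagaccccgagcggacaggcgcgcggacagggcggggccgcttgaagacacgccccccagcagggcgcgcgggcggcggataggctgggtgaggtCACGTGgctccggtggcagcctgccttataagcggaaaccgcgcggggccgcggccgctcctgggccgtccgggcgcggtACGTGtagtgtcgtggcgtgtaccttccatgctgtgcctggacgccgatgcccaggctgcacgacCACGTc
Hmgcs1, chr13:119690101-119690400, plus strand: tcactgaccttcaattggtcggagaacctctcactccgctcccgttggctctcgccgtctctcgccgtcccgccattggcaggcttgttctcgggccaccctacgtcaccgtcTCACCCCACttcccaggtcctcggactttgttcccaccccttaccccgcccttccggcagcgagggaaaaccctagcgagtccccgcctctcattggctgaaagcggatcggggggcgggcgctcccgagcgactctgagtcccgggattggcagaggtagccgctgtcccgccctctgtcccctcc
Cyp51, chr5:4104648-4104947, minus strand: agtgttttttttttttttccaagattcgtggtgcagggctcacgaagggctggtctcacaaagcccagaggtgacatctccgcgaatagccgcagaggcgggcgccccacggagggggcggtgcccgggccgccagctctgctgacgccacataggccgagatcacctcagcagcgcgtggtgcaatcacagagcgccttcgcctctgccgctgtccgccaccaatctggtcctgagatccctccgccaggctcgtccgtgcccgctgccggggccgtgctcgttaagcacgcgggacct
Elovl6, chr3:129532136-129532435, plus strand: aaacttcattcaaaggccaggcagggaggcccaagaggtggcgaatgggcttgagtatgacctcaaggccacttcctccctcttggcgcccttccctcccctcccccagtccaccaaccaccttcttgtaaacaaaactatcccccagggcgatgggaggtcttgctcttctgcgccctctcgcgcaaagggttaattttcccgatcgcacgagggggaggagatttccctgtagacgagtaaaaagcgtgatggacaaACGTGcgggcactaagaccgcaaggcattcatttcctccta
A RefSeq window was found for 29 of the 36 members, with 38 windows in all because some genes have several starts. The windows of Fdps, Fdft1, Sqle, Stard4, Scd1, Scd2 and Fads1 were not searched. The sterol response element occurred in 1 of the 38 members' windows, 2.63%, and in 1.24% of all 32851 windows, too few to compare. Only matches to the string TCACNCCAC were counted, so a window without it is not read as lacking such an element. The hypoxia core occurred in 26.3% of the members' windows and in 19.6% of all windows. CCAAT, a site of the SREBP partner NF-Y, occurred in 65.8% of the members' windows and in 37.4% of all. The GC box GGGCGG occurred in 73.7% of the members' windows and in 35.7% of all. These shares count windows, so a gene with several starts, such as Dhcr7, enters more than once. All windows were taken whether or not their genes had reads, so nothing particular to the members is read from the shares.

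**Figure D1:**
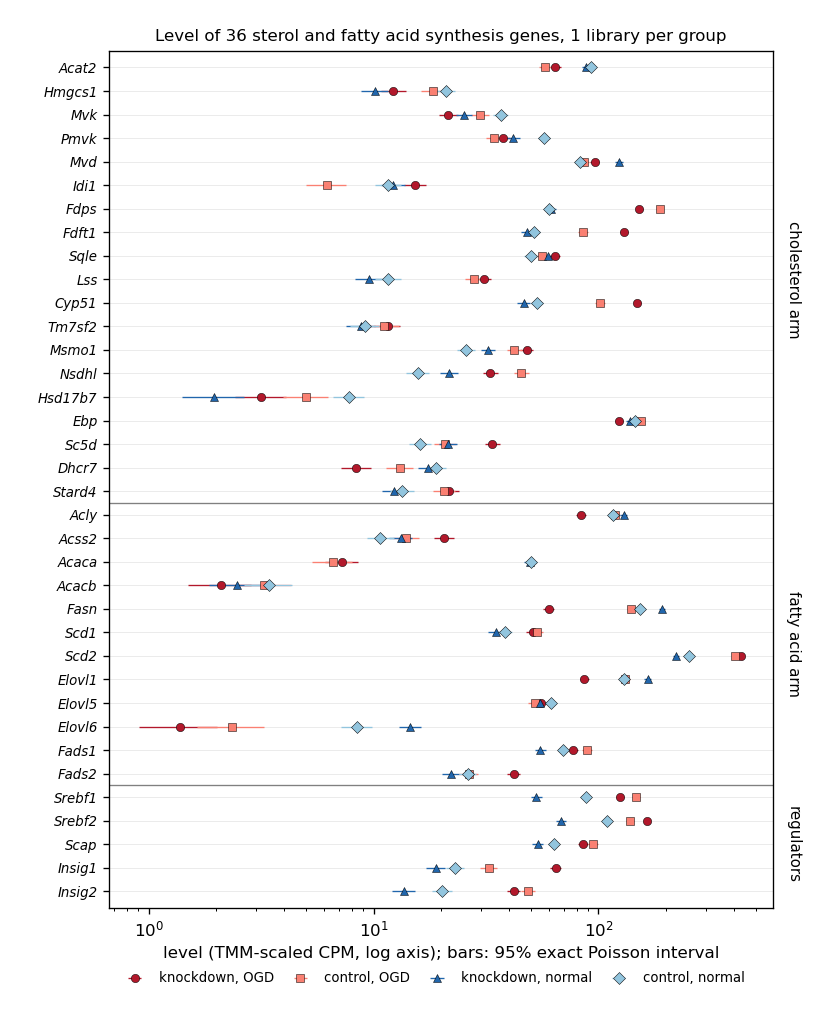
Level of each of the 36 genes in each of the 4 libraries, in TMM-scaled CPM on a log axis, with exact Poisson intervals at 95% as bars. All 5 regulators had both OGD libraries to the right of both libraries in normal culture, while Acaca, Elovl6 and Fasn had both OGD libraries to the left.

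All 36 genes had at least 20 reads in every library, and the lowest count was 27 reads in the knockdown OGD library, 36 in the control OGD library, 42 in the knockdown normal library and 67 in the control normal library. Between genes, levels were compared as deposited FPKM, which divides by transcript length. Fdps, which makes farnesyl diphosphate, had the highest FPKM of the 36 under OGD, at 178 in the knockdown library and 187 in the control library. Ebp, the sterol isomerase, had the highest in normal culture, at 165 FPKM in the knockdown library and 176 FPKM in the control library. Acacb, the mitochondrial-membrane acetyl-CoA carboxylase, was the lowest member in every library, between 0.28 and 0.47 FPKM. Summed over the cholesterol arm, the level was 1056 CPM in the knockdown OGD library and 779 CPM in the knockdown normal library, and 1003 CPM in the control OGD library and 782 CPM in the control normal library. The fatty acid arm summed to 915 CPM in the knockdown OGD library and 954 CPM in the knockdown normal library, and to 1040.5 CPM in the control OGD library and 921 CPM in the control normal library. Summed, the cholesterol arm thus stood higher under OGD in both cell groups. With total counts in place of TMM the fatty acid arm of control cells summed to 929 CPM under OGD and 971 CPM in normal culture, which turns its direction. Without Scd2, a single desaturase, the other 11 genes summed by TMM to 487 CPM under OGD and 732 CPM in normal culture in knockdown cells, and to 637 CPM under OGD and 667 CPM in normal culture in control cells.

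Under OGD 4 of 5 regulators were at least 2-fold higher in knockdown cells and 1 of 5 in control cells, the cholesterol arm held a few higher enzymes from Fdps to Nsdhl, and Acaca, the first committed enzyme of fatty acid synthesis, was lower in both. In knockdown cells 8 of 36 members were at least 2-fold higher and 4 at least 2-fold lower, against 19.1% and 16.9% of all 14071 genes tested. In control cells 4 of 36 were at least 2-fold higher and 2 at least 2-fold lower, against 9.36% and 22.2% of all 14101 genes tested. The members' shares were 22.2% and 11.1% in knockdown cells and 11.1% and 5.56% in control cells, so the share that was higher lay near that of all genes and nothing particular to the members is read from it. The median log2 ratio of the members was 0.51 in knockdown cells, where the median of all genes was -0.0020, and 0.22 in control cells, where the median of all genes was -0.11. All comparisons that use the control normal library carry its marker levels with them: 17 of 26 measured markers were at least 2-fold lower under OGD in control cells, while 20 of 25 were at least 2-fold higher under OGD in knockdown cells. Whether the source of these marker reads bears on the members' values was not tested.

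**Figure D2:**
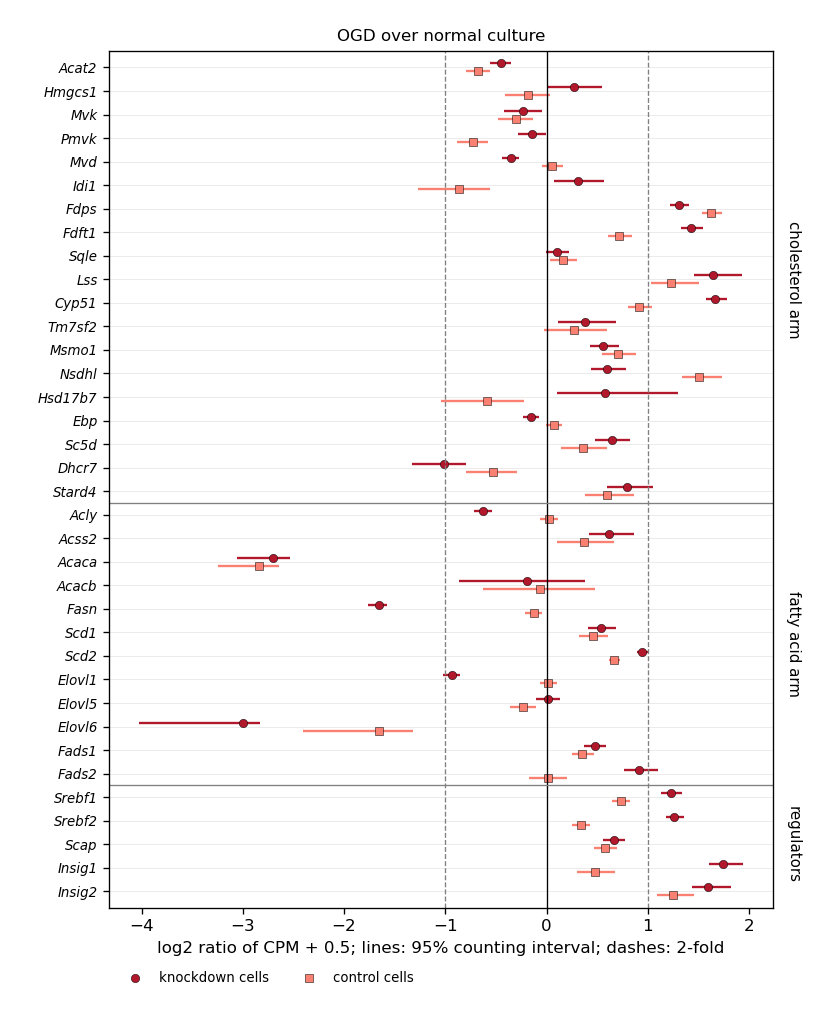
Log2 ratio of OGD over normal culture for each gene, in knockdown cells (circles) and control cells (squares), with exact binomial counting intervals at 95% as lines and 2-fold as dashes. Acaca and Elovl6 lie beyond 2-fold lower in both cell groups, and Fdps, Lss and Insig2 lie beyond 2-fold higher in both.

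All 5 regulators had positive log2 ratios under OGD in both cell groups on the CPM scale. Insig1, which holds the SREBP and Scap complex in the endoplasmic reticulum, had 64.4 CPM under OGD and 18.9 CPM in normal culture in knockdown cells, and 32.5 CPM under OGD and 23.1 CPM in normal culture in control cells. The log2 ratio of Insig1 was 1.75 (counting interval 1.61 to 1.94) in knockdown cells and 0.48 (0.31 to 0.68) in control cells. Insig1 is encoded on chr5:28071363-28078662, plus strand (GRCm38; ENSMUSG00000045294). Insig2, its sterol-sensing paralog, had 42.0 CPM under OGD and 13.6 CPM in normal culture in knockdown cells, and 48.8 CPM under OGD and 20.2 CPM in normal culture in control cells. Both cell groups passed 2-fold for Insig2, with log2 ratios of 1.59 (1.43 to 1.82) in knockdown cells and 1.25 (1.10 to 1.45) in control cells.

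Srebf2, which encodes the activator of the sterol genes, had 164 CPM under OGD and 68.3 CPM in normal culture in knockdown cells, and 138 CPM under OGD and 109 CPM in normal culture in control cells. Its log2 ratio was 1.26 (1.18 to 1.36) in knockdown cells and 0.34 (0.26 to 0.43) in control cells. Srebf1, which encodes the activator of the fatty acid genes, had 124 CPM under OGD and 52.9 CPM in normal culture in knockdown cells, and 147 CPM under OGD and 87.9 CPM in normal culture in control cells. Its log2 ratio was 1.23 (1.13 to 1.34) in knockdown cells and 0.73 (0.65 to 0.83) in control cells. Scap, the escort of both factors, gave 0.66 in knockdown cells and 0.58 in control cells, under 2-fold in each. As deposited FPKM, Scap had 45.8 under OGD and 13.8 in normal culture in knockdown cells, and 28.9 under OGD and 30.9 in normal culture in control cells, so its ratio in control cells turned negative on that scale. On the CPM scale every regulator was above its level in normal culture in both cell groups, with a group median of 1.26 in knockdown cells and 0.58 in control cells.

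In the cholesterol arm 4 of 19 genes were at least 2-fold higher and 1 was lower in knockdown cells, and 3 were higher and 0 lower in control cells. The share that was higher was 21.1% in knockdown cells, against 19.1% of all genes, and 15.8% in control cells, against 9.36% of all genes. The early steps all stayed within 2-fold. Acat2, the cytosolic thiolase that makes acetoacetyl-CoA, had log2 ratios of -0.45 in knockdown cells and -0.67 in control cells. The 4 mevalonate enzymes (Hmgcs1, Mvk, Pmvk and Mvd) lay between -0.35 and 0.27 in knockdown cells and between -0.72 and 0.06 in control cells. Pmvk, phosphomevalonate kinase, was the lowest of them in control cells, and Mvd, the decarboxylase, was the lowest in knockdown cells. The window of Hmgcs1 shown above, the one with the sterol response element, thus belongs to a gene that stayed within 2-fold.

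The isoprenoid and squalene steps held 3 of the 4 higher genes in knockdown cells and 2 of the 3 in control cells. Fdps had 152 CPM under OGD and 61.2 CPM in normal culture in knockdown cells, and 187 CPM under OGD and 60.4 CPM in normal culture in control cells. The ratio of Fdps on the log2 scale was 1.31 (1.22 to 1.41) in knockdown cells and 1.63 (1.54 to 1.73) in control cells. Fdps lies on chr3:89093588-89101959, minus strand (ENSMUSG00000059743), and 26.7% of its exonic bases are shared with the predicted gene Gm43738 on that strand, so reads of the pair may not be separable. Idi1, the isomerase just before it, had 15.3 CPM under OGD and 12.2 CPM in normal culture in knockdown cells, and 6.18 CPM under OGD and 11.6 CPM in normal culture in control cells. Its log2 ratio was 0.31 (0.07 to 0.56) in knockdown cells and -0.86 (-1.27 to -0.56) in control cells, so the sign differed between the cell groups. With total counts the ratio in control cells was -1.09, past 2-fold lower.

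Fdft1, squalene synthase, had 129.9 CPM under OGD and 47.9 CPM in normal culture in knockdown cells, and 85.4 CPM under OGD and 51.7 CPM in normal culture in control cells. The log2 ratio passed 2-fold in knockdown cells at 1.43 (1.33 to 1.54) and stayed under it in control cells at 0.72 (0.60 to 0.84). Exons of Ctsb on the opposite strand cover 18.3% of its exonic bases, and since strand use in counting is not stated, part of these reads may belong to Ctsb. Sqle, the oxygen-using squalene epoxidase, had log2 ratios of 0.11 in knockdown cells and 0.17 in control cells. Lss, which closes the ring to lanosterol, had 30.8 CPM under OGD and 9.54 CPM in normal culture in knockdown cells, and 27.95 CPM under OGD and 11.6 CPM in normal culture in control cells. By TMM Lss passed 2-fold in both, at 1.64 (1.46 to 1.93) in knockdown cells and 1.23 (1.03 to 1.503) in control cells, where total counts gave 0.996.

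After lanosterol the genes spread in both directions. Cyp51, the oxygen-using demethylase of lanosterol, had 148 CPM under OGD and 46.4 CPM in normal culture in knockdown cells, and 102 CPM under OGD and 53.5 CPM in normal culture in control cells. Its log2 ratio was 1.67 (1.57 to 1.78) in knockdown cells and, just inside 2-fold, 0.92 (0.81 to 1.04) in control cells. Cyp51 lies on chr5:4081145-4104746, minus strand (ENSMUSG00000001467). Nsdhl, the decarboxylating sterol dehydrogenase, had the larger ratio in control cells: 33.1 CPM under OGD and 21.6 CPM in normal culture in knockdown cells, and 45.4 CPM under OGD and 15.7 CPM in normal culture in control cells. On the log2 scale the ratio was 0.60 (0.44 to 0.79) in knockdown cells and 1.503 (1.34 to 1.73) in control cells. Msmo1, the methyl sterol oxidase, gave 0.56 in knockdown cells and 0.70 in control cells. Sc5d, the sterol C5-desaturase, gave 0.64 in knockdown cells and 0.36 in control cells.

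Tm7sf2 and Ebp, the sterol reductase and isomerase, stayed between -0.15 and 0.38 in both cell groups. Hsd17b7, the ketosterol reductase, gave 0.58 in knockdown cells, or 1.61 with deposited FPKM, and -0.58 in control cells. Dhcr7, a reductase of the last steps, had 8.38 CPM under OGD and 17.5 CPM in normal culture in knockdown cells, and 13.1 CPM under OGD and 19.02 CPM in normal culture in control cells. Its log2 ratio reached 2-fold in knockdown cells only by a little, at -1.02 (-1.33 to -0.79), and was -0.53 (-0.80 to -0.29) in control cells. Its ratio in knockdown cells was -0.81 with deposited FPKM and -0.91 with 2 CPM added, both inside 2-fold. Stard4, a carrier of cholesterol between membranes, gave 0.80 in knockdown cells and 0.60 in control cells.

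In the fatty acid arm 0 of 12 genes were at least 2-fold higher in either cell group, while 3 were lower in knockdown cells and 2 in control cells. The share that was lower was 25.0% in knockdown cells, against 16.9% of all genes, and 16.7% in control cells, against 22.2% of all genes. Acaca, the cytosolic acetyl-CoA carboxylase that makes malonyl-CoA, had 7.20 CPM under OGD and 49.8 CPM in normal culture in knockdown cells, and 6.57 CPM under OGD and 50.2 CPM in normal culture in control cells. On the CPM scale the libraries of each culture were thus close to each other and the cultures were far apart. Acaca was 6.91-fold lower under OGD in knockdown cells (log2 ratio -2.71, interval -3.05 to -2.53) and 7.65-fold lower in control cells (log2 ratio -2.84, interval -3.25 to -2.64). It lies on chr11:84129672-84401651, plus strand (ENSMUSG00000020532). As deposited FPKM, Acaca stood at 1.66 under OGD and 5.68 in normal culture in knockdown cells, and at 0.66 under OGD and 6.24 in normal culture in control cells. On that scale the OGD libraries were not close, with a log2 ratio of knockdown over control of 1.21. Its paralog Acacb had log2 ratios of -0.19 in knockdown cells and -0.06 in control cells, with intervals that span 0 and levels of 2.09 to 3.42 CPM.

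Fasn, the synthase that follows Acaca, passed 2-fold in knockdown cells and not in control cells. It had 60.1 CPM under OGD and 191 CPM in normal culture in knockdown cells, and 139 CPM under OGD and 152 CPM in normal culture in control cells. The log2 ratio was -1.66 (-1.76 to -1.57) in knockdown cells, a level 3.18-fold lower, and -0.13 (-0.21 to -0.05) in control cells. Fasn lies on chr11:120805846-120824547, minus strand (ENSMUSG00000025153). The genes that supply acetyl-CoA were under 2-fold: Acly, the citrate lyase, gave -0.63 in knockdown cells and 0.03 in control cells, and Acss2, the acetate ligase, gave 0.62 in knockdown cells and 0.37 in control cells.

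Of the 3 elongases, 1 passed 2-fold. Elovl6, which extends palmitate to stearate, had 1.38 CPM under OGD and 14.5 CPM in normal culture in knockdown cells, and 2.34 CPM under OGD and 8.41 CPM in normal culture in control cells. Without the 0.5 CPM added for the log2 ratios, Elovl6 was 10.5-fold lower in knockdown cells and 3.60-fold lower in control cells. It had 27 reads under OGD in knockdown cells and 36 in control cells. The log2 ratio was -3.00 (-4.02 to -2.83) in knockdown cells and -1.65 (-2.41 to -1.32) in control cells. Elovl6 lies on chr3:129532355-129638495, plus strand (ENSMUSG00000041220), and its window shown above holds 1 hypoxia core just after the start. Elovl1, the elongase of very long saturated chains, gave -0.93 in knockdown cells, just inside 2-fold, and 0.02 in control cells. Elovl5, an elongase of polyunsaturated chains, gave 0.01 in knockdown cells and -0.23 in control cells.

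By TMM the 4 desaturases were all above their level in normal culture in both cell groups, and none passed 2-fold. Scd2, a stearoyl-CoA desaturase abundant in brain, had the most reads of any member, with 428 CPM under OGD and 222 CPM in normal culture in knockdown cells, and 404 CPM under OGD and 253 CPM in normal culture in control cells. Its log2 ratios were 0.95 (0.90 to 1.00) in knockdown cells and 0.67 (0.62 to 0.73) in control cells. Scd1, its paralog, gave 0.54 in knockdown cells and 0.46 in control cells. Fads1, a desaturase of polyunsaturated chains, gave 0.48 in knockdown cells and 0.35 in control cells. Fads2, which acts before it, gave 0.92 in knockdown cells and 0.02 in control cells, and with total counts in place of TMM the value in control cells was -0.22.

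The comparisons of OGD in knockdown cells and OGD in control cells share no library, so their members can be set against each other. At least 2-fold higher in both were 3 members (Fdps, Lss and Insig2), against 6.08% of 13086 genes, and at least 2-fold lower in both were 2 members (Acaca and Elovl6), against 6.54%. The sign was the same in 28 of 36 members, 77.8%, against 71.3% of all genes. By TMM both OGD libraries lay above both libraries of normal culture for 18 of 36 members, against 29.4% of all genes. They lay below both for 6, against 31.4% of all genes. These counts may change with the scaling and were not recomputed with total counts, which shift the median of all genes by -0.23 for OGD in control cells. Fads2, for example, was above by little, at 26.5 CPM in the control OGD library and 26.2 CPM in the control normal library. The 18 were all 5 regulators, 8 genes of the cholesterol arm (Fdps, Fdft1, Lss, Cyp51, Tm7sf2, Msmo1, Nsdhl and Stard4) and 5 of the fatty acid arm (Acss2, Scd1, Scd2, Fads1 and Fads2). The 6 below were Acat2, Pmvk, Dhcr7, Acaca, Fasn and Elovl6.

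Set side by side, the arms had overlapping bounds in each OGD comparison, where an arm's bounds are the medians of its members' counting bounds. In knockdown cells the median log2 ratio was 0.38 in the cholesterol arm and -0.09 in the fatty acid arm, a difference of 0.47 (-0.15 to 1.10). In control cells the median was 0.17 in the cholesterol arm and 0.02 in the fatty acid arm, a difference of 0.15 (-0.16 to 0.42). With total counts the medians in control cells were -0.071 in the cholesterol arm and -0.22 in the fatty acid arm, so their sign rests on the scaling. Without the members whose exons overlap another gene, the difference in control cells was 0.051. Both ranges of the difference span 0. Each range sets an arm's bounds against the opposite bounds of the other arm and does not narrow with more genes. It is thus not a counting interval of a difference of medians, and it holds no spread between cultures. That the ranges span 0 therefore does not decide whether the arms differ. The lowest ratio in the fatty acid arm was -3.00 in knockdown cells (Elovl6, on 27 reads under OGD) and -2.84 in control cells (Acaca). In the cholesterol arm the lowest was -1.02 in knockdown cells (Dhcr7) and -0.86 in control cells (Idi1). Each of these values is 1 gene. The lowest values of short lists lie apart more readily than their medians, so no difference of the arms is read from them.

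**Figure D3:**
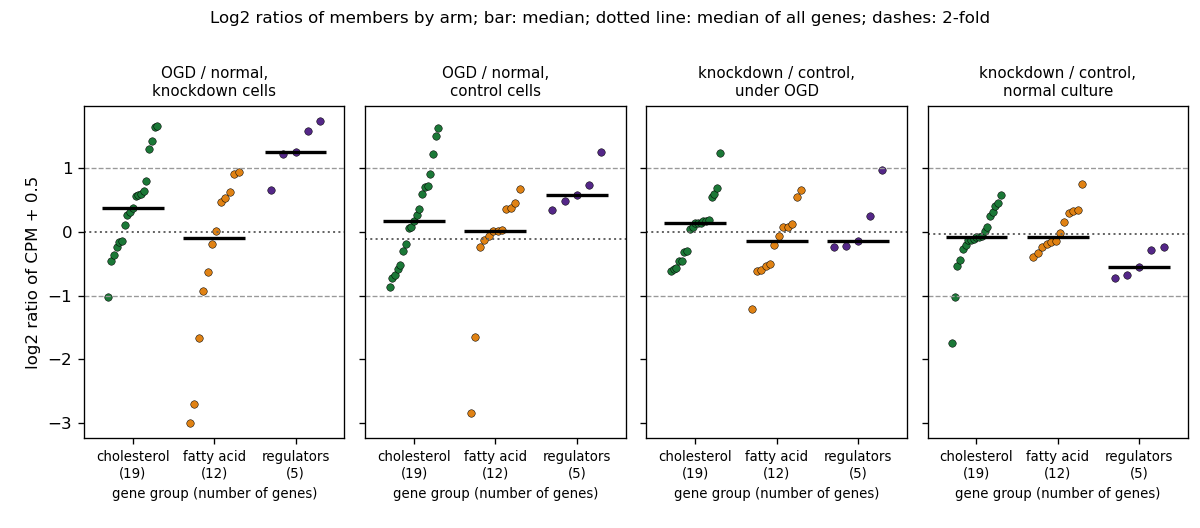
Log2 ratio of every member, by arm, in each of the 4 comparisons, with the arm's median as a bar, the median of all genes as a dotted line and 2-fold as dashes. Under OGD the regulators sit above the medians of both arms, and the fatty acid arm has a lower tail formed by Acaca, Elovl6 and, in knockdown cells, Fasn.

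Few members passed 2-fold with knockdown of Neat1 in either culture. Under OGD 1 of 36 was at least 2-fold higher and 1 was lower, against 10.7% and 4.23% of all 13388 genes tested. In normal culture 0 of 36 were at least 2-fold higher and 2 were lower, against 6.25% and 16.3% of all 14554 genes tested. No member passed 2-fold in both cultures in either direction, against 0.941% and 0.685% of all 12856 genes, and the sign was the same in 17 of 36 members, 47.2%, against 49.6% of all genes. Marker levels also differed between these libraries: 20 of 26 measured markers were at least 2-fold lower with knockdown in normal culture, and 20 of 25 were at least 2-fold higher with knockdown under OGD.

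**Figure D4:**
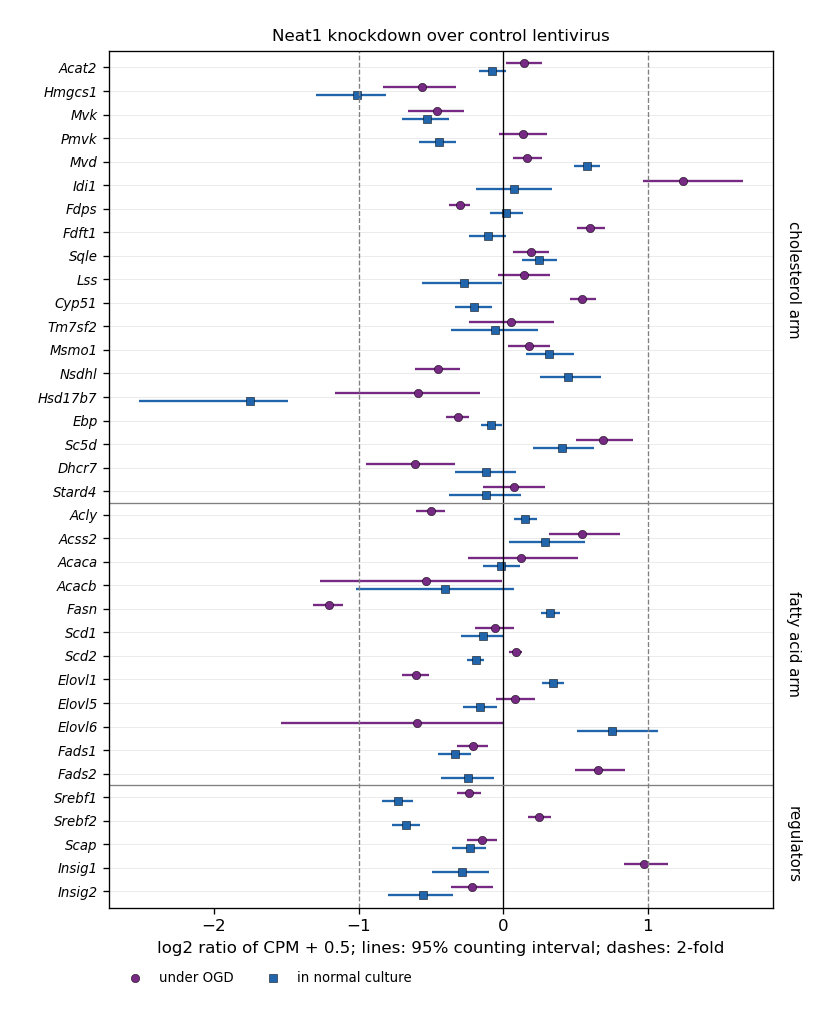
Log2 ratio of the Neat1 lentivirus over the control lentivirus for each gene, under OGD (circles) and in normal culture (squares), with exact binomial counting intervals at 95% as lines and 2-fold as dashes. Idi1 is higher and Fasn lower past 2-fold under OGD, and Hsd17b7 and Hmgcs1 are lower past 2-fold in normal culture.

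Under OGD the gene past 2-fold higher was Idi1, with 15.3 CPM in the knockdown library and 6.18 CPM in the control library, a log2 ratio of 1.24 (0.97 to 1.65). Insig1 lay just inside 2-fold, with 64.4 CPM in the knockdown library and 32.5 CPM in the control library, a log2 ratio of 0.98 (0.84 to 1.14), which was 1.17 with total counts. Fasn was past 2-fold lower, with 60.1 CPM in the knockdown library and 139 CPM in the control library, a log2 ratio of -1.21 (-1.32 to -1.11). The ratio of its deposited FPKM was inside 2-fold at -0.84. The other members lay between -0.61 and 0.69. The cholesterol arm had a median of 0.13 and the fatty acid arm of -0.14, a difference of 0.27 (-0.07 to 0.57), while with total counts the medians were 0.33 in the cholesterol arm and 0.065 in the fatty acid arm. With a floor of 100 reads the difference was 0.13 and the fatty acid median 0.012. The regulators had a median of -0.15. The median of all genes was -0.00071.

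In normal culture both genes past 2-fold lower belonged to the cholesterol arm. Hsd17b7 had 1.96 CPM in the knockdown library and 7.75 CPM in the control library, on 42 and 152 reads, a log2 ratio of -1.75 (-2.52 to -1.49). Hmgcs1, which makes HMG-CoA, had 10.1 CPM in the knockdown library and 20.9 CPM in the control library, a log2 ratio of -1.01 (-1.29 to -0.81), which was -0.98 with median-of-ratios factors. Its FPKM of 3.45 in the knockdown library and 7.30 in the control library gave a similar ratio. All 5 regulators were below their level in control cells, with a median of -0.55 and a range of -0.73 for Srebf1 to -0.23 for Scap, and the 4 desaturases lay between -0.33 and -0.14. None of these 9 genes passed 2-fold on the CPM scale (Scap gave -1.16 as FPKM), and 24 of the 26 measured markers were also below their level in control cells in that pair of libraries. The arms were level, with a median of -0.08 in each and a difference of -0.0050 (-0.33 to 0.28). The largest positive ratio was that of Elovl6, 0.75 (0.51 to 1.07), from 14.5 CPM in the knockdown library and 8.41 CPM in the control library.

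The difference between the OGD response of knockdown cells and that of control cells, taken gene by gene, reached 1 on the log2 scale in 3 members and -1 in 2, against 15.3% and 7.15% of 13086 genes. The 3 were Insig1 at 1.26, Idi1 at 1.17 and Hsd17b7 at 1.16, and the 2 were Fasn at -1.53 and Elovl6 at -1.35. The median of this difference was 0.19 in the cholesterol arm, 0.10 in the fatty acid arm and 0.49 in the regulators, against -0.04 over all genes. The variance of such a difference has no estimate with 1 library per group.

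In the authors' deposited tables, 0 of 36 members had an adjusted p-value under 0.05 in any comparison. The authors' deposited table calls 0.0947% of genes for OGD in knockdown cells, 1.21% for OGD in control cells, 0.124% for knockdown under OGD and 2.61% for knockdown in normal culture. The lowest value of a member in the authors' deposited table was 0.473 for Acaca under OGD in control cells, followed in the authors' deposited table by 0.623 for Fasn with knockdown under OGD.

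Other genes of the same pathways were taken from lists set by function. Of all genes, 19.1% were at least 2-fold higher and 16.9% lower under OGD in knockdown cells, and 9.36% higher and 22.2% lower in control cells. The lists are short, and nothing particular to a list is read from its counts. Of 9 measured genes of sterol uptake, transport and synthesis outside the 36, 1 was at least 2-fold higher and 2 lower under OGD in knockdown cells, and 1 was higher and 1 lower in control cells. The higher one was Soat1 in both, the enzyme that esterifies cholesterol for storage, with 117 CPM under OGD and 43.9 CPM in normal culture in knockdown cells, and 121 CPM under OGD and 39.7 CPM in normal culture in control cells. Of 10 measured genes of SREBP processing and sterol-regulated degradation, 1 was higher and 1 lower in knockdown cells, and 2 were higher and 1 lower in control cells. Ubxn4, a membrane partner of protein degradation, was higher in both with log2 ratios of 1.53 in knockdown cells and 1.10 in control cells, and March6, a ubiquitin ligase, gave 1.01 in control cells. Rnf145, a ubiquitin ligase of the endoplasmic reticulum, was lower in both, at -1.74 in knockdown cells and -1.28 in control cells.

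Of 19 measured genes of fatty acid synthesis and use outside the members, 2 were at least 2-fold higher and 3 lower under OGD in knockdown cells. Of 20 in control cells 2 were higher and 3 lower. The shares were 10.5% and 15.8% in knockdown cells, against 19.1% and 16.9% of all genes. In control cells they were 10.0% and 15.0%, against 9.36% and 22.2% of all genes. Acsl3, an acyl-CoA ligase of lipid droplets, was higher at 2.68 in knockdown cells and 1.18 in control cells, and Lpin1, a phosphatidate phosphatase, at 2.22 in knockdown cells and 1.60 in control cells. Acsl5, another ligase, was lower at -1.91 in knockdown cells and -1.0003 in control cells. Mid1ip1, a known activator of the carboxylase that Acaca encodes, was lower at -1.56 in knockdown cells. Of 6 lipid storage genes 0 were higher, 2 were lower in knockdown cells and 1 in control cells. Dgat2, which makes triglyceride, was lower in both, at -1.59 in knockdown cells and -1.75 in control cells. Of the liver X receptor axis, 7 genes were measured in each OGD comparison, of which 2 were higher and 1 lower in knockdown cells and 0 higher and 3 lower in control cells, and its most variable gene was Apoe, which glia also express. Apoe stood at 22.6 CPM in the knockdown OGD library, 10.4 in the control OGD library, 1.82 in the knockdown normal library and 582 in the control normal library.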

How the data were processed

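Total RNA of 4 HT22 cultures was sequenced, 1 library per group. Extraction used TRIzol, per the labels' protocols, and the RNA was fragmented and turned into double-stranded cDNA, of which a single strand carried deoxy-UTP, and PCR followed. Reads were aligned with TopHat2 to mm10, per the submitters' processing notes. Which version of the aligner was used, how reads were counted, on which annotation and with which strand setting is not given in the sources used.

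The authors deposited 4 pairwise tables. Per the file headers they hold a scaled mean count per gene and library (a signal), fold ratios, the p-value and its adjusted form. A pair of numbered columns whose unit is not named was read as FPKM, from the deposited values. Value columns with no sample numbered 0. Each deposited signal is a whole read count divided by 1 factor per library and table. From it whole reads were recovered, 100% of values being whole within 0.001 read, and the counts of a library were identical in its tables. The libraries held 19066951 reads (knockdown OGD), 17232866 (control OGD), 20764430 (knockdown normal) and 18596774 (control normal). Of 20089 identifiers, 19912 matched a name in GENCODE mouse release 21 (GRCm38).

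TMM factors came from edgeR 4.0.16 in R 4.3.3, and ratios from Python 3.11.15 with numpy 2.4.6, pandas 2.3.3 and scipy 1.17.1. Log2 ratios used CPM plus 0.5, an addition that pulls low genes toward 0, and were taken where either library reached 20 reads. No count test was run with 1 library per group, and an additive fit of lentivirus and culture was not run. Intervals at 95% are exact Poisson for levels and exact conditional binomial for ratios, without the added CPM. There were no molecular identifiers, so they cover counting error only. An arm's bounds are the medians of its members' bounds. The range of a difference of arms sets opposite bounds against each other. Neither is a counting interval of a median, since neither narrows with the number of genes. The scripts were checked on simulated data.

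All 36 members are named, and outside them up to 4 genes per list and comparison past 2-fold by size, with Neat1, Bnip3, Slc2a1 and Ndrg1. Some genes this rule takes are not reported here individually. The members and lists were chosen with earlier results of these data known. Alternatives were total counts and median-of-ratios factors (DESeq2 1.42.0), an addition of 0.1 or 2 CPM, a minimum of 100 reads or no minimum, the deposited FPKM, a 1.5-fold rule and other memberships of the arms. Leaving out members with overlapping exons, and ratios relative to the median of all genes, were added after the data were seen.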

Additional observations from a re-analysis of the deposited data

Results flagged for a closer look

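In 5 genes the same contrast ran in opposite directions in the 2 cell groups or cultures, with both counting intervals away from 0 and a difference of at least 1 on the log2 scale. The difference itself was not tested, since each group held 1 library. These are the 5 members already named above for the difference of the OGD responses. That difference was past 1 in either direction in 13.9% of members, against 22.5% of all genes. The share of all genes with opposite directions was not computed, so nothing particular to the members is read from the count. The OGD response of Idi1 was 0.31 in knockdown cells and -0.86 in control cells, a difference of 1.17. That of Hsd17b7 was 0.58 in knockdown cells and -0.58 in control cells, a difference of 1.16, on 42 to 152 reads. The knockdown ratio of Fasn was -1.21 under OGD and 0.33 in normal culture, a difference of -1.53. That of Elovl6 was -0.60 under OGD and 0.75 in normal culture, a difference of -1.35, on 27 to 312 reads. That of Insig1 was 0.98 under OGD and -0.29 in normal culture, a difference of 1.26.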

How the results depend on the processing

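No paired analysis was possible because the groups share no replicate numbers and each held 1 library, so no library was left out. An additive fit of both factors, with 1 residual degree of freedom, was not run. Of the 22 ratios of members past 2-fold, none changed sign under any alternative run. Apart from the deposited FPKM, the alternatives shift ratios too little to turn one of that size, so this was a weak check. Inside 2-fold under some alternative were Lss for OGD in control cells (0.996) and Dhcr7 for OGD in knockdown cells (-0.81 and -0.91). So were Hmgcs1 for knockdown in normal culture (-0.98) and Fasn for knockdown under OGD (-0.84). With total counts in place of TMM the median of all genes shifted by -0.23 for OGD in control cells and by 0.19 for knockdown under OGD. The arm medians moved with it: for OGD in control cells to -0.071 (cholesterol) and -0.22 (fatty acid), and for knockdown under OGD to 0.33 (cholesterol) and 0.065 (fatty acid), with 2 members higher; for OGD in control cells 3 members were then lower, Idi1 among them. With the deposited FPKM those medians were -0.081 (cholesterol) and -0.25 (fatty acid) for OGD in control cells and 0.30 (cholesterol) and 0.064 (fatty acid) for knockdown under OGD, with 4 members higher and 0 lower. The FPKM ratio also put 9 further values past 2-fold: Hsd17b7 (1.61), Stard4 (1.33) and Scap (1.72) for OGD in knockdown cells, Stard4 (1.01) and Pmvk (-1.0002) for OGD in control cells, Cyp51, Acaca and Insig1 (1.21 to 1.22) for knockdown under OGD, and Scap (-1.16) for knockdown in normal culture. The sign of the arm medians in control cells, and of the fatty acid median for knockdown under OGD, thus rests on the scaling. The fatty acid median also changed sign with the members taken: for OGD in knockdown cells to 0.012 with a floor of 100 reads and with regulators added to the arms, for knockdown under OGD to 0.012 with that floor, and for OGD in control cells to -0.023 with enzymes of one arm alone. For knockdown in normal culture 1 member was lower with median-of-ratios factors, with 2 CPM added and relative to the median of all genes, Hmgcs1 falling inside 2-fold. Under a 1.5-fold rule 15 members were higher and 6 lower for OGD in knockdown cells, and 10 higher and 5 lower for OGD in control cells. For knockdown, 5 were higher and 5 lower under OGD, and 1 higher and 4 lower in normal culture. The shares of all genes at 1.5-fold were not computed, so these counts have no background beside them. The difference of the arms stayed within its range under every alternative run, a weak check given how wide that range is by construction. It moved by over 1.5 times in places. For OGD in control cells the difference went to 0.051 without overlapping members and to 0.25 with regulators added. For knockdown under OGD it went to 0.13 with a floor of 100 reads. For knockdown in normal culture it lay near 0 and turned positive with FPKM (0.018), with regulators added (0.033) and with enzymes of one arm alone (0.071). Beyond scaling, the cause of these shifts was not tested. Counting limits Hsd17b7, Elovl6 and Acacb most, at 27 to 312 reads.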
